A study of Mus musculus with 8 samples.

Results

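The lysosome genes described here are the subunits and accessory proteins of the vacuolar H+-ATPase (V-ATPase), the cathepsins, the LAMP membrane proteins, the mucolipin channels and the 3 MiT/TFE transcription factors Tfeb, Tfe3 and Mitf. They were matched by gene symbol, with no measured value in the matching rule. The rule itself was chosen with earlier results of these data known. It took Atp6v0 and Atp6v1 subunit names, Atp6ap1 and Atp6ap2, every Cts gene with a single letter, Lamp1 to Lamp3, Mcoln1 to Mcoln3 and the 3 factors. The names matched 51 of the 24505 gene rows. Of these 51 genes, 32 reached at least 1 RPKM (reads per kilobase of gene, scaled to sequencing depth) in at least 2 of the 8 libraries and were tested. The other 19 stayed under that level, the highest at 0.760 RPKM.

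The V-ATPase is a rotary proton pump. Its V1 sector in the cytosol hydrolyses ATP and turns a ring of proteolipid subunits in the membrane-bound V0 sector, which moves protons into the lysosome. The acid activates the cathepsins, proteases that are made as inactive precursors and sorted to the lysosome, while heavily glycosylated LAMP proteins line the membrane and mucolipins release calcium from the lumen. TFEB and TFE3 bind a palindromic E-box of the CLEAR type in the promoters of many lysosomal genes. The kinase complex mTORC1, which is recruited to the lysosome surface, holds these factors in the cytosol when nutrients are plentiful. In mouse embryonic stem cells the move of TFE3 out of the nucleus is tied to the exit from the naive state.

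The cells were mouse embryonic stem cells of a line with a conditional Ino80 allele, labelled INO80 CKO in all 8 libraries. INO80 is the ATPase of a chromatin remodelling complex. The cells were kept naive in 2iL, which is N2B27 with the MEK inhibitor PD0325901, the GSK3 inhibitor CHIR99021 and LIF at 1000 units/ml, or primed in FAX, which is N2B27 with FGF-2 at 12 ng/ml, Activin A at 20 ng/ml and the tankyrase inhibitor XAV-939 at 2 uM. To delete Ino80, cells were given 4-OHT at 100 nM for 2 days and harvested after 2 further days. Each state had 2 libraries labelled knockout and 2 labelled wild type. Whether wild-type cells also received 4-OHT, which Cre the line carries and whether it is 1 clone are not given in the sources used here. Nothing in the labels says that same-group libraries came from separate cultures, so the p-values measure a spread that may be technical.

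A few facts of the whole series bear on every value. Ino80 itself was listed at 15.9 and 15.1 RPKM in the naive libraries labelled knockout and at 17.0 and 14.5 in naive wild type, so its level as deposited does not bear out the naive knockout label (adjusted p = 0.975), while in the primed state it was lower, at 9.12 and 8.74 against 15.9 and 20.3 (-0.93 on the log2 scale, adjusted p = 2.0e-06). After cyclic loess normalization the Ino80 difference was -0.28 in primed cells (adjusted p = 1.1e-04) and -0.099 in naive cells (adjusted p = 0.0461). Which exons are deleted is not given, so reads outside them may remain. The direction of every difference below is that of libraries labelled knockout against wild type. Read from the values, the 4 libraries of a state appear to have been scaled together and the 2 states apart, which was not tested. Levels are therefore compared between states only as ranks within a library. Library sums ran from 341480 to 507598 RPKM, read depth is unknown, and precision is limited by 2 libraries a group. In the primed state the whole distribution was shifted: the median of all 13428 tested genes lay -0.53 on the log2 scale, from -0.68 at a mean log2 level of 2 to 4 to -0.24 from 6 upwards, against 0.049 in the naive state. Each primed call of a member is therefore also given after cyclic loess, a normalization that removes a shift between libraries as a function of level. The sources used here do not say whether the ERCC spike-in RNA added to the lysates set the scale. A true change in RNA per cell and a difference in scaling cannot be told apart, and loess, quantile normalization or centring would take away either. Pluripotency markers were high as a sum throughout (5 genes, 953 to 1526 RPKM). Single markers differed by genotype: Nanog was at 38.6 and 35.5 RPKM in primed knockout against 111 and 122 in primed wild type. Pou5f1 and Sox2 were higher in primed knockout than in primed wild type. The 6 naive-state markers summed to 729.8 to 837 RPKM in naive and 2.44 to 10.6 in primed libraries, and the 5 primed-state markers to 18.3 to 23.4 in naive and 209.6 to 256 in primed libraries, as the state labels say. Dnmt3b gave most of the primed-state sum, at 168 to 190 RPKM in the primed libraries. In primed knockout T was at 37.4 and 33.7 RPKM against 1.94 and 2.89 in primed wild type. Fgf5 was at 19.2 and 17.1 against 4.31 and 5.99. Pou3f1 was at 9.28 and 7.40 against 14.1 and 19.8, and Otx2 at 13.8 and 14.1 against 14.7 and 19.5. What these marker differences mean for the members was not tested. All 9 macrophage markers with a row were below 1 RPKM in every library, as were 8 of 9 trophoblast markers. Endoderm markers summed to 3.13 to 7.63 RPKM over 10 genes. The 7 fibroblast markers summed to 34.3 and 46.4 RPKM in primed wild type, 15.6 and 14.8 in primed knockout and 1.12 to 4.43 in the naive libraries. Their part in the primed differences was not tested. In these bulk libraries fewer cells of a type and less RNA per cell cannot be told apart.

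Promoter sequences were read from RefSeq windows on GRCm38.p6 that span 250 bases before to 50 bases after each start site; 41 of the 51 genes matched, with 50 windows. The 8-base palindrome TCACGTGA, the core of the CLEAR element, was searched on both strands; it contains the E-box CACGTG, so the matches overlap. It was found in 6 of 41 genes (14.6%), or 6 of 26 tested genes with a window (23.1%). Over all RefSeq windows, 304 of 27025 genes held it (1.12%; 0.974% of all windows of the same length), and among genes tested here 213 of 10045 (2.12%). CACGTG alone was found in 11 of 41 genes (26.8%), against 8.09% of the table's genes and 11.9% of tested genes. A match is a description of the letters, not a bound site. The matches are shown because they fall in V0, V1, cathepsin and channel genes alike. Of the 6 genes, Ctsd, Mcoln1 and Ctsa had larger primed differences as deposited, 1 upwards and 2 downwards. Those of Atp6v1a, Atp6v0e and Atp6v0d1 were smaller, at -0.30, -0.16 and -0.075. Ctsc and Atp6v0e2, at -0.92 and -0.88, had a window without the palindrome. Of the tested members, Atp6v0a2, Atp6v1b2, Atp6v1c1, Atp6v1g1, Atp6v1h and Ctsb had no window and were not searched. Among them is Atp6v1b2, with the largest primed difference, -1.24. Each line gives 30 bases on the gene's strand, 5′ to 3′, with the palindrome in capitals. Distances are from the start site of the window. For Atp6v1a that site, 44139259, lies inside the RefSeq gene, whose outer start is at 44139702. For Ctsa it is 164833773, inside a gene whose outer start is at 164832872, and the Ctsa window at that outer start held no match.
Ctsd, chr7:142387908-142387937, minus strand, palindrome starting 99 bases before the start site: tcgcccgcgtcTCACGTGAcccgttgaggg
Mcoln1, chr8:3500462-3500491, plus strand, 46 bases before: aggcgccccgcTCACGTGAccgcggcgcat
Ctsa, chr2:164833749-164833778, plus strand, 13 bases before: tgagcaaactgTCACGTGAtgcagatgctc
Ctsa, chr2:164833766-164833795, plus strand, a further match 4 bases past the start site: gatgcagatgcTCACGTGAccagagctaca
Atp6v1a, chr16:44139373-44139402, minus strand, 132 bases before: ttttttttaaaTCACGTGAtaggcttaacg
Atp6v0d1, chr8:105566050-105566079, minus strand, 4 bases before: ccctactgcggTCACGTGAgacgcggtgcg
Atp6v0e, chr17:26676387-26676416, plus strand, 2 bases past: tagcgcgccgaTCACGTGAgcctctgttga

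The 250 bases before the start site are given for Ctsd and Mcoln1, which hold the same palindrome and moved in opposite directions in the primed state, as deposited and after cyclic loess. Capitals mark the palindrome and any further E-box, here CACGTG with the T before it or, read from the other strand, the A after it.
Ctsd, chr7:142387828-142388077, minus strand: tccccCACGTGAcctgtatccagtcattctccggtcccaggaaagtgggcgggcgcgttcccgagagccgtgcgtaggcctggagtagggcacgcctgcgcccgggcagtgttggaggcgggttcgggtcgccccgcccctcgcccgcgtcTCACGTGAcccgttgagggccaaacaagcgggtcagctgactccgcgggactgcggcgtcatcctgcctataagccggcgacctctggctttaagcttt
Mcoln1, chr8:3500269-3500518, plus strand: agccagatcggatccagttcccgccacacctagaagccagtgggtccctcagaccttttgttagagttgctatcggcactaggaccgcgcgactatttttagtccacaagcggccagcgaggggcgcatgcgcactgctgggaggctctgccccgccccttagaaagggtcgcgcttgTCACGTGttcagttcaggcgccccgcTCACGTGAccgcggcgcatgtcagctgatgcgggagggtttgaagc

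Knockout was compared with wild type in each state by limma on log2(RPKM + 1), with Benjamini-Hochberg adjustment across the 13428 tested genes and a threshold of 0.05. Differences below are on that log2 scale with their standard errors; adding 1 understates the change of low genes. In naive cells 5 of the 32 tested genes passed: Ctsd, Ctsz and Atp6v1h were higher and Atp6v1b2 and Ctsc lower. The background was 11.9% of all tested genes, 6.08% higher and 5.85% lower, and 5 of 32 is near that share. In primed cells 21 of 32 passed, of which only Ctsd was higher and 20 were lower, where 63.4% of all tested genes passed, 4.16% higher and 59.3% lower. The 20 lower calls are thus close to the background share. The naive count was 2 without naive knockout library 1, 3 without naive knockout library 2 and 17 without primed wild-type library 1 and also without library 2, and the primed count was 12 without primed knockout library 2. The medians were 0.22 for the 32 genes and 0.049 for all genes in naive cells, and -0.38 against -0.53 in primed cells. The knockout effect itself differed between states, as an interaction, for 19 genes, each lower in primed than in naive cells, with 49.6% of all genes passing, 2.16% higher and 47.4% lower.

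After cyclic loess within each state the median residual SD was 0.0504 on the log2 scale, against 0.179 as deposited, and more genes passed. In naive cells 26 of the 32 genes then passed, 19 higher and 7 lower, where 57.5% of all genes did, 29.1% higher and 28.4% lower. In primed cells 22 passed, 11 higher and 11 lower, where 73.5% of all genes did, 37.0% higher and 36.5% lower. The primed split thus moved from 1 higher and 20 lower as deposited to an even one. Quantile normalization within each state gave 20 higher and 7 lower in naive cells (all genes called, 59.4%; 32.0% higher, 27.4% lower) and 15 higher and 9 lower in primed cells (74.1%; 39.4% higher, 34.6% lower). Centring each library on its median left the median difference of all tested genes at 0.16 in primed cells and for the interaction, so a centred value between 0 and 0.16 is above 0 and below the median of all genes. It gave 4 higher and 3 lower in naive cells (33.2%; 16.1% higher, 17.0% lower) and 16 higher and 3 lower in primed cells (65.1%; 41.6% higher, 23.6% lower). For the interaction the split was 7 higher and 16 lower after loess (63.4% of all genes; 32.7% higher, 30.6% lower), 8 and 15 after quantile normalization (64.4%; 34.0% and 30.5%) and 6 and 1 with median centring (46.3%; 29.2% and 17.1%). On the values as deposited, both naive knockout libraries lay above both wild-type libraries for 20 of 32 genes (62.5%; all genes, 31.2%) and below for 4 (12.5%; all genes, 21.0%), and in primed cells they lay above for 3 (9.38%; all genes, 6.77%) and below for 23 (71.9%; all genes, 76.4%).

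**Figure D1:**
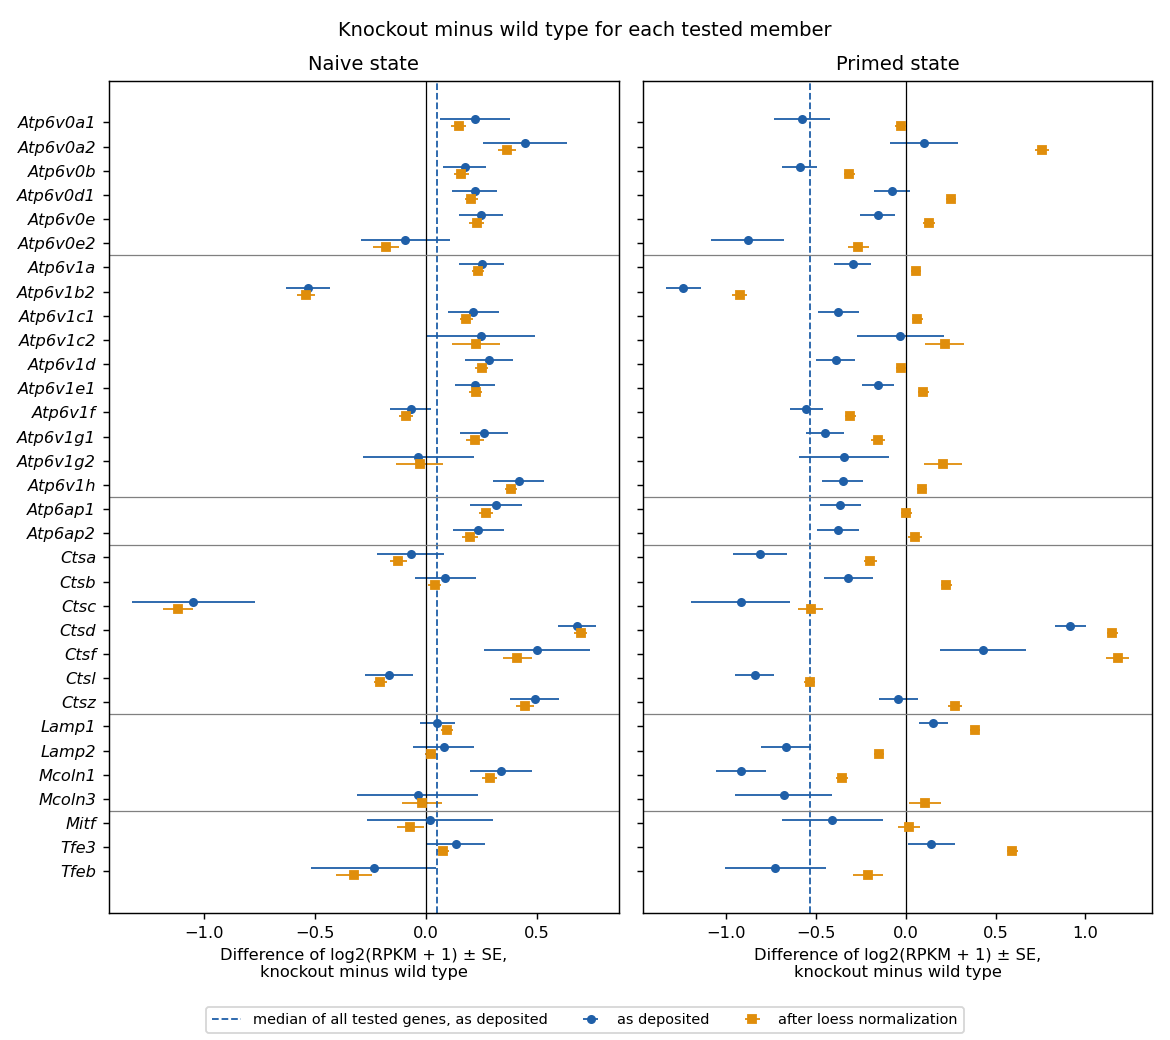
Log2 difference, knockout minus wild type, of each of the 32 tested genes in naive and primed cells, with standard errors, as deposited (circles) and after cyclic loess (squares); the dashed line is the median of all genes as deposited. Ctsd lies above 0 and Atp6v1b2 and Ctsc below 0 in both states on both scales, while 5 of the 32 primed differences lie above 0 as deposited and 19 after loess. Of all 13428 tested genes 1659 primed differences lie above 0 as deposited and 6890 after loess.

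V1, the ATP-hydrolysing sector, had 13 genes, of which 10 were tested. In naive cells 1 rose and 1 fell as deposited (all genes, 6.08% higher and 5.85% lower). Of the 10 naive differences 7 were above 0, as were 7709 of all 13428 tested genes. After loess 6 were higher and 2 lower in naive cells (29.1% and 28.4%). In primed cells 7 of 10 fell as deposited, where 59.3% of all genes were lower, with a median of -0.36 that lay 0.17 above the median of all genes. The deposited primed median of all genes varied with level, at -0.47 for a mean log2 level of 4 to 6 and -0.24 from 6 upwards. After loess 2 were higher and 3 lower in primed cells (37.0% and 36.5%). The V1 median then lay 0.046 above that of all genes. The catalytic A subunit, Atp6v1a, stood at 99.1 and 101 RPKM in naive knockout and 79.2 and 88.8 in naive wild type, and at 47.9 and 44.8 in primed knockout against 53.6 and 60.7 in primed wild type. The groups did not overlap in either state, higher in naive and lower in primed knockout. Its naive difference of 0.25 ± 0.10 did not pass (adjusted p = 0.0916), and the primed one, -0.30 ± 0.10, passed as deposited (adjusted p = 0.00702) but was 0.059 after loess.

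Atp6v1b2, the B subunit that shares the nucleotide-binding interface with A, went against most of its sector in naive cells. It was listed at 84.3 and 83.1 RPKM in naive knockout and 114 and 129.9 in naive wild type. The primed values were 40.7 and 40.5 against 93.4 and 101. Both knockout libraries were below both wild-type libraries in each state. The difference was -0.53 ± 0.098 in naive cells (adjusted p = 2.2e-06) and -1.24 ± 0.098 in primed cells (adjusted p = 4.8e-35), where it was -0.71 relative to the median of all genes and stayed -0.92 after loess. Without the intensity trend in the fit the naive call was lost (adjusted p = 0.062). Per library, the ratio of Atp6v1b2 to Atp6v1a in RPKM was 0.850 and 0.825 in naive knockout against 1.43 and 1.46 in naive wild type, and 0.851 and 0.905 against 1.74 and 1.67 in the primed state. This ratio was chosen after its values were seen. Slc18a1, which overlaps Atp6v1b2 on the opposite strand, was at 0.261 to 1.81 RPKM, and the B1 isoform Atp6v1b1 gave at most 0.111% of the B subunit's summed RPKM.

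The H subunit, which links V1 to the membrane sector and regulates the pump, rose in naive cells: Atp6v1h was at 65.5 and 66.4 RPKM in knockout against 48.5 and 49.9, a difference of 0.42 ± 0.12 (adjusted p = 0.00459). That call was lost without naive knockout library 1 (adjusted p = 0.176), naive knockout library 2 (0.224) or naive wild-type library 1 (0.0542), and with median centring (0.051). The naive call was also lost without the intensity trend in the fit and with the replicate number as a block. In primed cells Atp6v1h was at 32.8 and 29.4 against 36.1 and 44.1, -0.35 ± 0.12 as deposited (adjusted p = 0.00486) and 0.089 after loess, so its sign depended on the scaling.

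The C subunit Atp6v1c1, which joins the stalks of the pump, was at 65.4 and 68.0 RPKM in naive knockout against 55.8 and 59.0 in wild type, and at 31.8 and 29.7 against 36.1 and 44.7 in primed cells. Atp6v1d, a subunit of the central rotor stalk, was at 68.1 and 66.9 against 54.3 and 56.3 in naive and 43.9 and 41.8 against 51.4 and 62.0 in primed cells. Atp6v1e1, a peripheral stalk subunit, was at 145 and 144 against 119 and 129 in naive and 97.6 and 95.8 against 102 and 113 in primed cells. For these 3 genes the knockout libraries lay above wild type in naive cells and below it in primed cells without overlap. None of the 3 naive differences passed (0.21 to 0.28), and the primed ones were -0.38, -0.39 and -0.15, the first 2 of which passed, but 0.065, -0.025 and 0.098 after loess.

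Atp6v1f, which also belongs to the rotor stalk, had overlapping libraries in naive cells. Its values were 79.4 and 78.5 RPKM in naive knockout against 78.8 and 87.3 in wild type, and 92.2 and 89.4 against 129 and 138 in primed cells. The primed difference was -0.55 ± 0.094 (adjusted p = 2.2e-08) and -0.31 after loess, but 0.14 with median centring. Atp6v1g1, a peripheral stalk partner of the E subunit, was at 51.0 and 50.9 against 42.9 and 41.7 in naive cells and 64.6 and 55.9 against 75.8 and 89.7 in primed cells, without overlap in either state. Its primed difference of -0.45 ± 0.11 (adjusted p = 8.4e-05) was -0.15 after loess and 0.24 with median centring.

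V0, the membrane sector, had 9 genes with 6 tested. None passed in naive cells as deposited, where 5 of 6 differences were above 0 with a median of 0.22. Of all 13428 tested genes 7709 were above 0. After loess 5 were higher and 1 lower in naive cells (all genes, 29.1% and 28.4%). In primed cells 3 of 6 fell as deposited, where 59.3% of all genes were lower, with a median of -0.37, which is 0.17 above that of all genes. After loess 3 were higher and 2 lower in primed cells (37.0% and 36.5%). The V0 median then lay 0.035 above that of all genes. Atp6v0b, the c″ proteolipid of the rotating ring, was at 99.7 and 94.5 RPKM in naive knockout against 83.6 and 88.3 in wild type and at 66.9 and 62.0 against 91.7 and 104 in primed cells. The primed libraries separated with a difference of -0.59 ± 0.096 (adjusted p = 5.0e-09), -0.31 after loess, though 0.10 with median centring.

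The a subunit, which carries the proton path beside the ring and steers the pump to its membrane, is encoded by several isoform genes. Atp6v0a1 was at 20.7 and 20.1 RPKM in naive knockout against 18.8 and 16.1 in wild type and at 17.4 and 17.0 against 23.5 and 29.2 in primed cells. The primed libraries did not overlap, and the difference of -0.58 ± 0.16 (adjusted p = 6.4e-04) lay at -0.045 relative to the median of all genes, with -0.029 after loess and 0.12 with median centring, passing on neither. Atp6v0a2 was at 17.9 and 16.5 RPKM in naive knockout against 13.5 and 11.3 in wild type, without overlap. Its naive difference of 0.45 ± 0.19 did not pass as deposited (adjusted p = 0.113). It was called higher after loess (0.36, adjusted p = 7.3e-05), quantile normalization (0.38, 1.5e-04) and median centring (0.39, 0.00114). In primed cells the Atp6v0a2 difference was on the other side of 0 from that of Atp6v0a1. At 13.1 and 12.1 RPKM in primed knockout against 10.2 and 13.3, it overlapped and did not pass as deposited (0.10 ± 0.19), but was 0.76 after loess (adjusted p = 3.0e-07). Atp6v0a1 made up 57.1 and 58.2% of the summed RPKM of Atp6v0a1, Atp6v0a2 and Atp6v0a4 in primed knockout and 69.6 and 68.6% in primed wild type, while in naive cells its share was 53.4 and 54.5% against 57.2 and 58.4%. The separation of shares was seen after the values and carries no test. Tcirg1, the a3 isoform gene, is named outside the Atp6 pattern; it rose in naive knockout, to 15.2 ± 0.474 from 9.63 ± 1.77 RPKM (SD, n = 2; difference 0.61 ± 0.21, adjusted p = 0.0285).

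Atp6v0d1, the d subunit that couples ring and stalk, was at 99.1 and 97.0 RPKM in naive knockout against 79.9 and 88.6 in wild type, and at 58.7 and 56.5 against 56.7 and 65.0 in primed cells. It did not pass in either state as deposited (adjusted p = 0.152 and 0.526), and primed knockout overlapped wild type, with -0.075 as deposited and 0.25 after loess. Atp6v0e, a small membrane subunit, was at 90.0 and 92.7 against 73.4 and 80.3 in naive and 72.1 and 69.5 against 76.2 and 82.0 in primed cells, passing in neither. Atp6v0e2, its isoform with a higher share in primed cells (18.8 and 22.5% of the summed e RPKM in primed wild type, 13.0 and 8.87% in naive wild type), was at 9.17 and 8.13 against 11.0 and 7.82 in naive cells. In primed cells it was at 10.4 and 10.9 against 17.6 and 23.8, a difference of -0.88 ± 0.20 (adjusted p = 4.5e-05) that was -0.26 after loess and was called, lower, under all 17 alternatives.

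Atp6v0c, which encodes the main proteolipid of the ring and is needed for any working pump, was listed at 0.0145 to 0.156 RPKM in all 8 libraries. Atp6v0c-ps2, a pseudogene row close to it in name, listed at 0.0151 to 0.0821 RPKM, is one of the copies with which reads may be shared, so this level is uncertain and is not read as absence.

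Accessory proteins Atp6ap1 and Atp6ap2, the latter also called the prorenin receptor, bind the pump during its assembly. Atp6ap1 was at 46.2 and 46.6 RPKM in naive knockout against 37.6 and 36.5 in wild type and at 43.9 and 41.5 against 52.7 and 57.9 in primed cells. Atp6ap2 was at 58.4 and 62.8 against 51.0 and 51.7 in naive and 34.0 and 30.8 against 39.8 and 45.1 in primed cells. Both separated upwards in naive cells without passing (adjusted p = 0.0525 and 0.193), and their primed differences of -0.36 and -0.38 passed as deposited but came to 0.0034 and 0.051 after loess. Without primed knockout library 2, the primed calls of Atp6v1a, Atp6v1c1, Atp6v1h, Atp6ap1 and Atp6ap2 were lost (adjusted p = 0.0718 to 0.141).

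Over the whole V-ATPase, 18 of 24 genes were tested. In naive cells 14 of 18 differences were above 0 with a median of 0.23, where 7709 of all 13428 tested genes were above 0. As deposited 1 passed in each direction (all genes, 6.08% higher and 5.85% lower), and after loess 13 were higher and 3 lower (29.1% and 28.4%). In primed cells 12 fell and none rose as deposited, which is near the 59.3% of all genes that were lower. The primed median of -0.37 was 0.16 above the median of all genes as deposited, and the V-ATPase median was 0.039 above it after loess. With loess 5 were higher and 5 lower (37.0% and 36.5%). The interaction was lower in primed cells for 14 of 18 as deposited (all genes, 47.4%), at a median of -0.60 where all genes had -0.59. After loess it was lower for 12 of 18 and higher for 1 (30.6% and 32.7%).

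**Figure D2:**
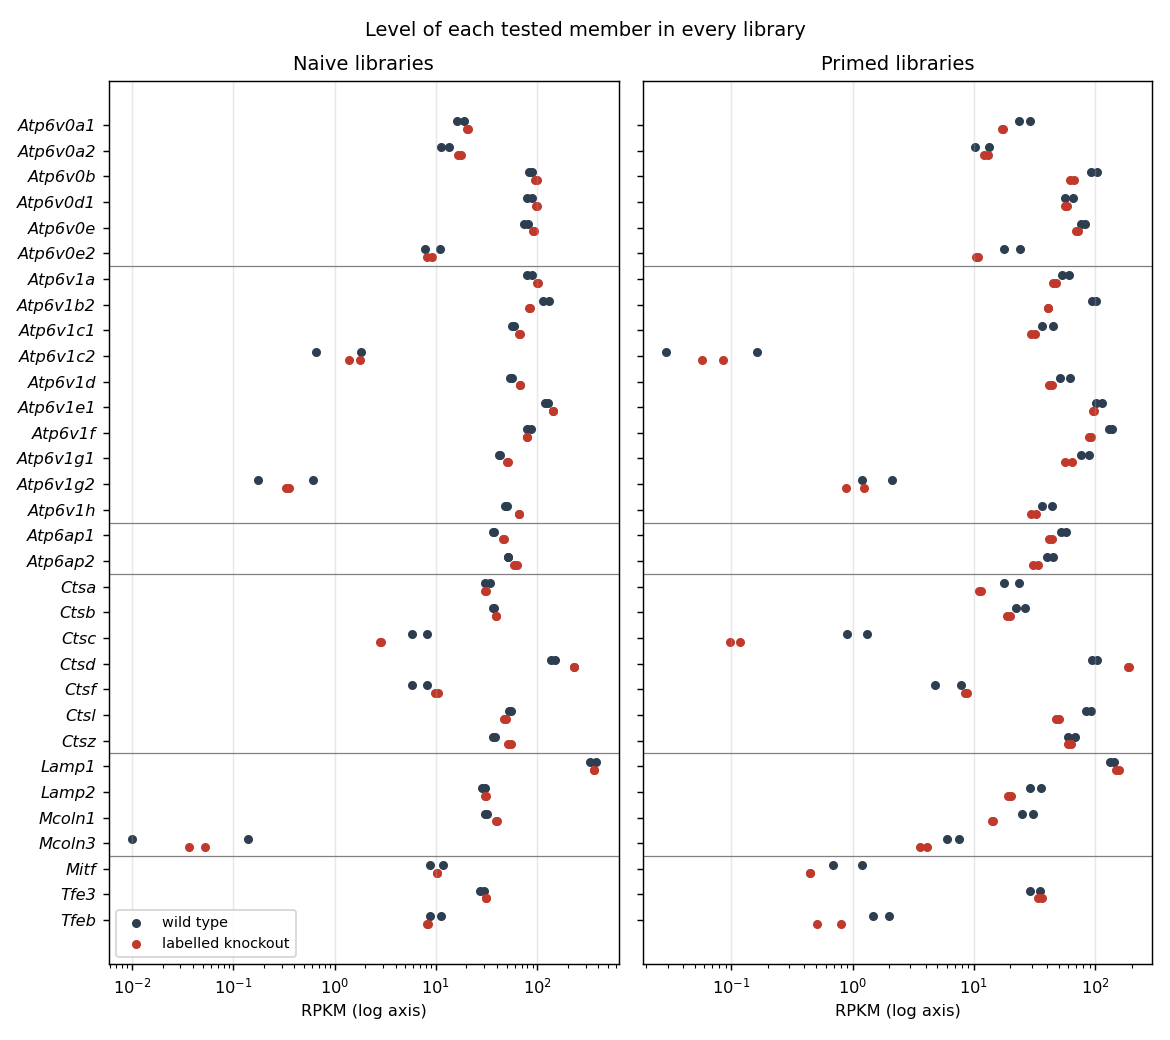
RPKM on a log axis of the 32 tested genes in each of the 8 libraries, with naive and primed libraries in separate panels, roles divided by lines and knockout and wild type coloured; each point is 1 library. Naive knockout lies above naive wild type for most V-ATPase genes, Atp6v1b2 lies below it, and Ctsd stands apart upwards in both states.

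Ctsd, the aspartic protease cathepsin D and the highest cathepsin in every library, was the member with the highest rise in both states. It was at 231 and 232 RPKM in naive knockout against 138 and 151 in wild type, and at 191 and 186 against 94.9 and 104 in primed cells. Each group's libraries lay close together and the groups were far apart. The rise was 0.68 ± 0.084 in naive cells (adjusted p = 1.5e-13) and 0.92 ± 0.084 in primed cells (adjusted p = 5.0e-26), the latter 1.45 above the median of all genes and 1.15 after loess. It was called, higher, under all 17 alternatives in both states. Ctsd supplied 55.1 and 55.9% of the summed RPKM of all 18 cathepsin rows in naive knockout against 43.1 and 46.8% in wild type, and 55.2 and 55.8% in primed knockout against 33.3 and 31.7% in wild type. The summed cathepsin RPKM was 420.0 and 414 in naive knockout against 319 and 323, and 346 and 333 against 286 and 327 in primed cells, so the primed sums differed less than Ctsd did. As deposited the test of a difference in effect between states was not passed (0.24 ± 0.12, adjusted p = 0.0806), whereas after loess it was 0.45 higher in primed cells (adjusted p = 2.4e-05). The annotated gene Gm49369 overlaps Ctsd on the same strand, so reads could be assigned to either.

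Ctsl, the cysteine protease cathepsin L, was at 48.7 and 47.4 RPKM in naive knockout against 53.0 and 55.2 in wild type. In primed cells it was at 50.1 and 47.6 against 84.2 and 92.8. The libraries separated downwards in both states, and the fall passed in primed cells at -0.84 ± 0.11 (adjusted p = 4.0e-14; -0.54 after loess; -0.15 with median centring, adjusted p = 0.387, no longer passing) but not in naive cells at -0.17 ± 0.11 (adjusted p = 0.366). The balance of cathepsins D and L differed accordingly: the ratio of Ctsd to Ctsl in RPKM was 3.81 and 3.90 in primed knockout and 1.13 and 1.12 in primed wild type, and 4.75 and 4.89 against 2.60 and 2.74 in naive cells, a ratio chosen after its values were seen.

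Ctsb, another cysteine protease, differed little in naive cells. It was at 39.1 and 39.6 RPKM in naive knockout against 37.0 and 37.0 in wild type, and at 19.9 and 18.7 against 22.2 and 26.6 in primed cells. Its primed difference was -0.32 ± 0.14 as deposited (adjusted p = 0.0306), lost when any of 5 libraries was left out (adjusted p = 0.084 to 0.222), and 0.23 after loess. Fdft1, on the opposite strand and overlapping Ctsb, was at 39.3 and 40.5 RPKM against 54.3 and 56.2 in naive cells and at 29.0 and 27.4 against 20.0 and 23.2 in primed cells.

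Ctsz, the carboxypeptidase cathepsin Z, was at 55.1 and 51.6 RPKM in naive knockout against 38.7 and 36.7 in naive wild type, a rise of 0.49 ± 0.11 (adjusted p = 2.0e-04) that was lost without naive knockout library 1 (adjusted p = 0.100). The naive call of Ctsz was also lost without the intensity trend in the fit. In primed cells Ctsz was at 63.5 and 59.9 against 59.3 and 68.0, overlapping, with -0.042 as deposited and 0.27 after loess. Nelfcd, which overlaps Ctsz on the opposite strand, was at 31.7 and 31.8 RPKM in naive knockout against 47.5 and 46.1 in wild type. Whether counting used strand is not given, and the part of shared reads was not tested. In all, 16 of the 32 tested members overlap another annotated gene.

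Ctsa, or protective protein, a carboxypeptidase that also stabilises a lysosomal galactosidase and a neuraminidase, was at 30.9 and 30.5 RPKM in naive knockout against 33.9 and 30.7 in wild type and at 11.3 and 11.0 against 17.6 and 23.7 in primed cells. The naive libraries overlapped and the primed ones did not. Its primed difference of -0.81 ± 0.15 (adjusted p = 4.2e-07) was -0.20 after loess, and -0.12 with median centring, where it no longer passed (adjusted p = 0.259).

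Ctsc, the dipeptidyl peptidase that activates granule proteases in blood cells, was the lowest cathepsin with a call. It was at 2.90 and 2.79 RPKM in naive knockout against 8.20 and 5.86 in wild type, and at 0.0977 and 0.118 against 0.893 and 1.32 in primed cells. Knockout lay below wild type in both states, with differences of -1.05 ± 0.28 (adjusted p = 0.00256) and -0.92 ± 0.28 (adjusted p = 0.00204). The primed difference was -0.39 relative to the median of all genes, -0.53 after loess and -0.23 with median centring, against -1.12 in naive cells after loess. With a pseudocount of 0.1 or with no filter the naive difference did not pass. The naive call was lost without either naive knockout library (adjusted p = 0.109 and 0.135) and the primed call without either primed knockout library (0.0584 and 0.0572), while the sign stayed under all 17 alternatives.

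Ctsf, a further cysteine cathepsin that stayed below 20 RPKM and passed no test as deposited, was listed at 4.76 to 10.6 RPKM. Its primed difference was 1.18 after loess against 0.43 as deposited. The naive one was 0.50 as deposited, without overlap, and was called higher after loess (0.41, adjusted p = 6.7e-04), quantile normalization (0.44, 6.1e-04) and median centring (0.44, 0.00109). The other 11 cathepsin rows, among them Ctsk, Ctss, Ctsg and Ctsw of bone-resorbing and blood cells and Ctsj, Ctsm, Ctsq and Ctsr of the rodent placenta, did not reach the test. Of the 7 tested cathepsins 2 rose and 1 fell in naive cells as deposited (all genes, 6.08% higher and 5.85% lower). In primed cells 1 rose and 4 fell as deposited (4.16% and 59.3%), so the number lower is about the background. After loess 3 were higher and 3 lower in naive cells (29.1% and 28.4%) and 4 higher and 3 lower in primed cells (37.0% and 36.5%).

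**Figure D3:**
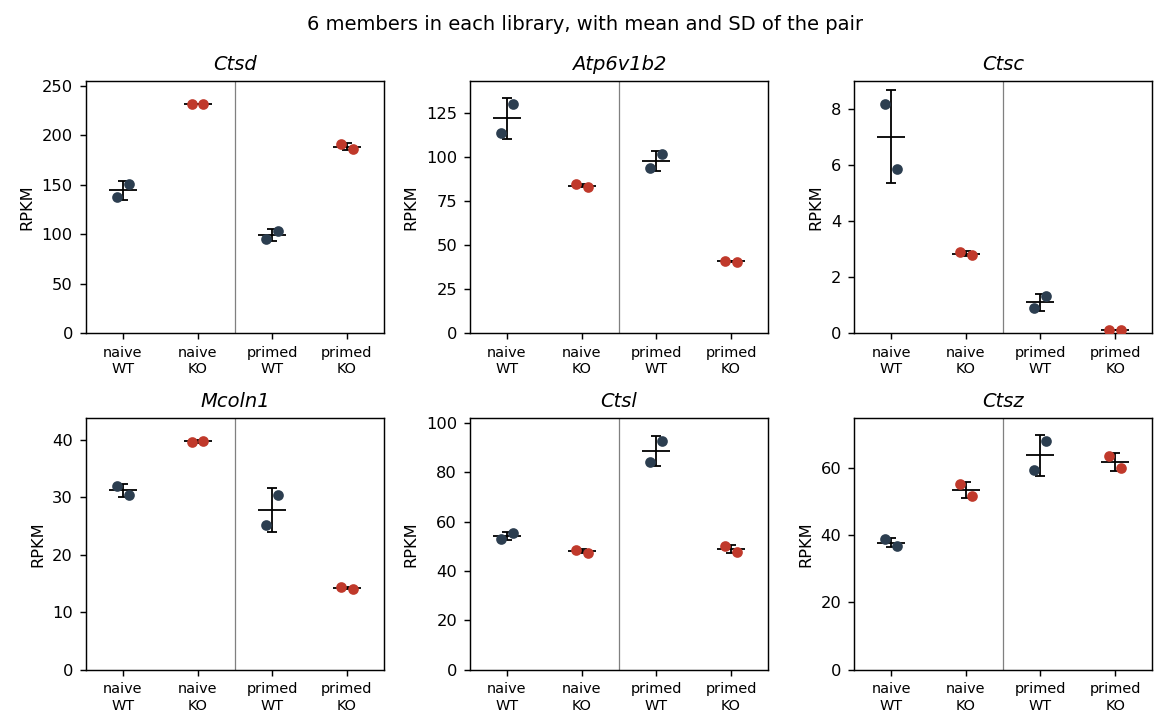
RPKM in each library, on a linear axis from 0, of 6 members with large or opposed differences; points are libraries, and the lines and whiskers are the mean and SD of 2. Ctsd is higher in knockout in both states, Atp6v1b2 and Ctsc are lower in both, Mcoln1 is above wild type in naive and below it in primed cells, Ctsl is lower in primed knockout, and Ctsz is higher in naive knockout with overlapping libraries in primed cells.

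Lamp1, the most abundant lysosomal membrane glycoprotein transcript here, was at 364 and 365 RPKM in naive knockout against 329.5 and 376 in wild type, and at 157 and 149 against 133 and 143 in primed cells. It passed in neither state as deposited, although both primed knockout libraries were above both wild-type ones and the difference of 0.15 ± 0.079 lay 0.69 above the median of all genes and was 0.38 after loess (adjusted p = 2.2e-06). Lamp2, whose splice forms include the receptor for chaperone-mediated autophagy, was at 30.7 and 31.5 against 30.4 and 28.4 in naive and 20.4 and 19.2 against 28.8 and 35.5 in primed cells. Its primed libraries separated with a difference of -0.67 ± 0.14 (adjusted p = 5.5e-06), -0.15 after loess and 0.028 with median centring. Lamp3 was not tested.

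Mcoln1, the lysosomal calcium channel TRPML1, had the largest difference in knockout effect between states among the members, on the values as deposited. It was at 39.6 and 39.9 RPKM in naive knockout against 32.0 and 30.4 in wild type, and at 14.3 and 14.0 against 25.1 and 30.5 in primed cells. Knockout was above wild type in the first and below it in the second, without overlap. The naive difference of 0.34 ± 0.14 did not pass (adjusted p = 0.100), the primed one of -0.92 ± 0.14 did (adjusted p = 4.7e-10; -0.36 after loess), and with median centring the primed value was -0.22 (adjusted p = 0.0747). The interaction of -1.26 ± 0.20 (adjusted p = 6.6e-09) was -0.67 relative to the median of all genes, was -0.64 after loess, and was called under all 16 alternatives that give an interaction.

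Mcoln3, the channel TRPML3, was listed at 4.08 and 3.61 RPKM in primed knockout against 6.03 and 7.56 in primed wild type, without overlap, and at 0.00999 to 0.140 in the 4 naive libraries. The primed difference of -0.68 ± 0.27 (adjusted p = 0.0212) was lost when any of 5 libraries was left out (adjusted p = 0.0577 to 0.199) and was 0.11 after loess. Mcoln2 was not tested.

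Tfe3, the MiT/TFE factor with the highest level in both states, was at 31.5 and 31.2 RPKM in naive knockout against 30.0 and 27.1 in wild type, and at 36.4 and 33.8 against 28.8 and 34.9 in primed cells. Naive knockout lay above wild type and the primed groups overlapped. It passed in neither state as deposited, but the primed difference of 0.14 ± 0.13 lay 0.67 above the median of all genes and was 0.59 after loess (adjusted p = 2.1e-07). Tfeb was at 8.43 and 8.13 against 11.1 and 8.84 in naive cells, lower in knockout without passing as deposited (-0.24, adjusted p = 0.704). Its naive difference was called lower after loess (-0.32, adjusted p = 0.00888), quantile normalization (-0.29, 0.0204) and median centring (-0.29, 0.0128). In primed cells Tfeb was at 0.807 and 0.508 against 1.49 and 2.00, a difference of -0.73 ± 0.28 (adjusted p = 0.0175) that was -0.21 after loess and -0.033 with median centring, no longer passing (adjusted p = 0.728). This call was lost without primed knockout library 1 (adjusted p = 0.0727), primed knockout library 2 (0.235) or primed wild-type library 2 (0.110). Mitf was at 8.79 to 11.7 RPKM in naive cells and 0.447 to 1.19 in primed cells and passed in neither state as deposited or after loess. In primed cells Mitf was 0.13 after quantile normalization (adjusted p = 0.0391) and 0.28 with median centring (adjusted p = 0.00369), both called. These are transcript levels and say nothing of where the factors are in the cell.

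Between the states, ranks within each library, given as the percentile among all 24505 rows, describe which members are high where. In the wild-type libraries Mitf stood at 73.1 and 72.8 in naive cells and at 47.9 and 48.2 in primed cells. Tfeb was at 72.4 and 72.9 in naive and 53.3 and 52.4 in primed cells, while Tfe3 was at 87.4 and 87.1 in naive and 86.3 and 86.0 in primed cells. So the ranks of Mitf and Tfeb were lower in the primed state and that of Tfe3 was close in both. Mcoln3 was at 28.9 and 9.84 in naive and 64.4 and 63.1 in primed cells. Among the proteases Ctsc was at 68.3 and 68.4 in naive and 50.0 and 49.4 in primed cells, and Ctsa at 88.9 and 88.4 in naive and 78.9 and 79.6 in primed cells. Ctsb was likewise higher in naive cells, at 90.0 and 90.4 against 82.4 and 81.6 in primed cells, and Ctsl was higher in primed cells, at 96.4 and 96.3 against 93.7 and 93.8. Ctsd ranked 98.4 and 98.3 in naive and 96.9 and 96.8 in primed wild type. In the libraries labelled knockout it ranked 99.2 and 99.2 in naive and 99.0 and 99.0 in primed cells.

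**Figure D4:**
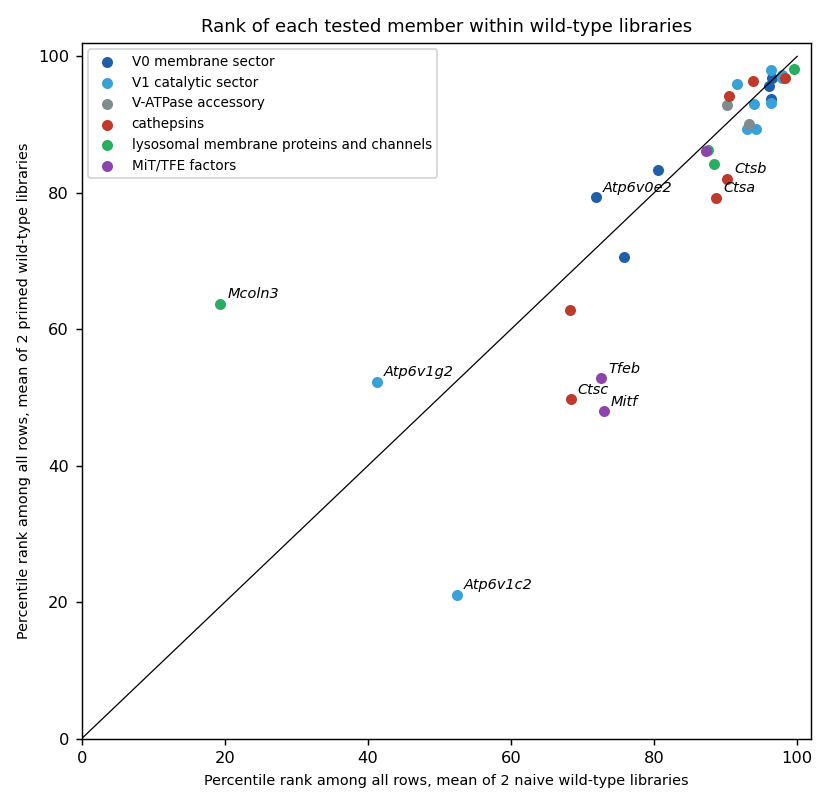
Percentile rank of each tested member among all rows of its library, wild-type naive against wild-type primed, as the mean of 2 libraries, with the line of equal rank. Mitf, Tfeb, Ctsc, Ctsa and Atp6v1c2 lie below the line, Mcoln3 lies far above it, and most V-ATPase subunits sit near the upper right corner.

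Isoform shares varied little for the other subunits. The lowest share of the summed RPKM of its subunit in any library was 99.88% for Atp6v0d1, 99.89% for Atp6v1b2 and 99.92% for Atp6v1e1, while Atp6v1c1 made up at least 96.8% and Atp6v1g1 at least 97.6%. The tested isoforms Atp6v1c2, at 0.0289 to 1.83 RPKM, and Atp6v1g2, at 0.174 to 2.12 RPKM, passed in no comparison as deposited or after loess. Atp6v1c2 passed in naive cells after quantile normalization (adjusted p = 0.0378) and in primed cells with median centring (0.00412), and Atp6v1g2 in primed cells under both (0.0188 and 0.0338). Atp6v0a4, Atp6v0d2, Atp6v1b1, Atp6v1e2 and Atp6v1g3, forms known from kidney, bone, testis or other specialised tissues, were not tested.

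Other lysosomal genes, from lists that hold none of the 51, give the setting; the shares of all genes called as deposited were 6.08% higher and 5.85% lower in naive cells and 4.16% and 59.3% in primed cells, and after loess 29.1% and 28.4% in naive and 37.0% and 36.5% in primed cells. Of 36 further hydrolases and cofactors 5 rose and 1 fell in naive cells and 2 rose and 26 fell in primed cells as deposited. The primed median was -0.75, or -0.22 relative to all genes. After loess 9 were higher and 12 lower in naive cells, where the balance turned, and 11 higher and 20 lower in primed cells. Gaa, the acid glucosidase, rose in naive knockout to 50.5 ± 2.08 from 27.5 ± 0.525 RPKM (SD, n = 2; 0.85 ± 0.13, adjusted p = 6.0e-09). In primed knockout Hexa, a hexosaminidase subunit, fell to 6.53 ± 0.418 from 41.4 ± 4.90 RPKM (-2.49 ± 0.14; -1.90 after loess), while Man2b1, a lysosomal mannosidase, rose to 42.8 ± 1.56 from 21.0 ± 2.72 (1.00 ± 0.13; 1.48 after loess). Of 22 other membrane proteins and transporters 3 rose in naive and 18 fell in primed cells as deposited. After loess 9 were higher and 4 lower in naive cells, and 6 higher and 10 lower in primed cells. Scarb2, which carries an acid glucosidase to the lysosome, rose in naive knockout to 11.8 ± 0.146 from 7.80 ± 2.29 RPKM (0.57 ± 0.20).

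Of 13 genes that sort lysosomal enzymes 1 fell in naive and 11 in primed cells as deposited (all genes lower, 5.85% and 59.3%). After loess 3 were higher and 6 lower in naive cells, and 2 higher and 8 lower in primed cells. Gga3, an adaptor for mannose 6-phosphate receptors, was the one that fell in both as deposited: 6.73 ± 0.00665 against 19.0 ± 3.08 RPKM in naive cells (-1.37 ± 0.19) and 6.25 ± 0.374 against 30.2 ± 4.89 in primed cells (-2.10 ± 0.19; -1.47 after loess). Among 11 tested genes of V-ATPase assembly and further subunits 9 fell in primed cells as deposited, at a median of -0.88 where all genes had -0.53. After loess 4 were higher and 6 lower, at a median of -0.19. Tmem199, an assembly factor, fell in naive knockout to 17.8 ± 0.780 from 29.8 ± 2.40 RPKM (-0.71 ± 0.16, adjusted p = 1.6e-04), and Rogdi, a subunit of the RAVE-like assembly complex, fell in primed knockout to 7.64 ± 0.107 from 25.8 ± 4.38 (-1.62 ± 0.15; -0.99 after loess). Among 24 genes of mTORC1, Ragulator and folliculin, which control TFEB and TFE3, the GTPase gene Rraga alone rose in naive cells and 19 fell in primed cells as deposited. After loess 11 were higher and 4 lower in naive cells, and 8 higher and 11 lower in primed cells. Of 25 autophagy genes 5 rose in naive cells, and 1 rose and 18 fell in primed cells as deposited. After loess 15 were higher and 4 lower in naive cells, and 12 higher and 11 lower in primed cells. Atg9b, the 1 that rose in primed knockout, went to 5.97 ± 0.567 from 2.12 ± 0.529 RPKM (1.17 ± 0.28, and 1.96 after loess). It was also higher in naive knockout (0.82 ± 0.28, adjusted p = 0.0313). Optn fell in primed knockout to 7.47 ± 0.261 from 26.4 ± 3.63 RPKM (-1.69 ± 0.24, and -1.06 after loess). Atg12 fell to 11.7 ± 0.934 from 27.9 ± 4.08 (-1.18 ± 0.16, and -0.60 after loess). Cst3, the secreted cathepsin inhibitor cystatin C, rose in naive knockout to 117 ± 3.75 from 87.2 ± 10.8 RPKM (0.43 ± 0.092).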

How the data were processed

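RNA-seq of 8 mouse libraries was read from 1 deposited table of RPKM values per library. Per the submitters' processing notes, cutadapt 1.9, STAR 2.5.2b, featureCounts 1.5.1, affy and the mm9 build were used. Per the labels' protocols, libraries were TruSeq with Ribo-Zero and ERCC spike-in RNA was added before extraction; the tables hold 0 ERCC rows. The gene annotation, the use of strand and the scaling are not given in the sources used here. The deposited RPKM values hold no 0. Read from the values, the 4 libraries of a state appear to have been scaled together, which was not tested. Date-like symbols occur in 26 rows, none a member.

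The values were tested as log2(RPKM + 1) with limma 3.58.1 in R 4.3.3: genes reaching 1 RPKM in 2 or more libraries, 4 group means, an intensity trend, Benjamini-Hochberg adjustment over 13428 genes and a threshold of 0.05. The prior degrees of freedom were infinite, so each p-value rests on the trend of spread over all genes. A gene's own spread, with 4 residual degrees of freedom, has no weight in it. The fit was also run on simulated data that held no shift of the whole distribution between genotypes. That run therefore does not bear on the primed shift. Groups were taken from the labels. The labels give same-numbered libraries a shared number and do not say whether they were paired, so the main fit did not pair them. Alternatives were another pseudocount (0.1), no filter, a filter of 5 RPKM, median centring, quantile and cyclic loess normalization within each state, each state alone, no trend, a replicate block and leaving out each library.

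Values in every library are given for members with a mean of at least 20 RPKM in a group or called in any comparison, and up to 2 called genes a direction are named from each further list. The members and lists were chosen with earlier results of these data known. Overlapping genes were read from the GENCODE M21 annotation, for names only.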

Additional observations from a re-analysis of the deposited data

Results flagged for a closer look

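The knockout effect differed between primed and naive cells, as limma's interaction on log2(RPKM + 1), for 19 members, where 49.6% of all tested genes passed. All 19 values were negative, lower in primed cells, against a median of -0.59 over all genes. In the V0 sector they were Atp6v0a1 -0.80, Atp6v0b -0.77, Atp6v0e -0.40 and Atp6v0e2 -0.79. In the V1 sector they were Atp6v1a -0.55, Atp6v1b2 -0.71, Atp6v1c1 -0.59, Atp6v1d -0.67, Atp6v1e1 -0.37, Atp6v1f -0.48, Atp6v1g1 -0.71 and Atp6v1h -0.77, and Atp6ap1 -0.68 and Atp6ap2 -0.61 for the accessory proteins. Among the other genes they were Ctsa -0.74, Ctsl -0.68, Ctsz -0.53, Lamp2 -0.75 and Mcoln1 -1.26. Mcoln1 was furthest below the median of all genes. After median centring 1 of the interactions, that of Mcoln1, was still called lower. The calls of Atp6v0e and Atp6v1e1 were lost without naive knockout library 1, naive knockout library 2 or primed knockout library 2, that of Ctsz without naive knockout library 1 (adjusted p = 0.0623), and that of Atp6v0e2 without any of 6 libraries, all but naive and primed wild-type library 1 (adjusted p = 0.062 to 0.137).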

How the results depend on the processing

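The counts of calls varied with scaling and with single libraries. In naive cells 1602 genes and 5 members were called as deposited, with 4456 genes under median centring, 7978 genes and 27 members under quantile normalization, 7719 and 26 under cyclic loess, 2526 and 17 with the state fitted alone, and 908 and 2 without the intensity trend. Leaving out 1 library gave 559 to 2950 genes and 2 to 17 members, lowest without naive knockout library 1 and highest without a primed wild-type library. In primed cells it gave 5523 to 9547 genes against 8517 and 12 to 23 members against 21, the lowest without primed knockout library 2. For the interaction it gave 3446 to 8858 genes against 6658 and 15 to 22 members against 19, and median centring gave 7 members. The fit with the replicate number as a block called 942 genes and 4 members in naive cells, 7672 and 18 in primed cells and 5171 and 16 for the interaction. Same-numbered libraries deviated together in naive cells (correlation 0.314) but not in primed cells (-0.0356). With 2 pairs a state, these values do not decide whether same-numbered libraries were paired. The sign was kept under every alternative for 5 of 5 naive, 8 of 21 primed and 5 of 19 interaction calls, and the call too for 1, 3 and 1. 

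Each value whose sign changed, where it or the deposited one was called, is given here on the log2 scale; the cause was not tested. The median of all tested genes was 0.016 in primed cells after loess and 0.026 after quantile normalization, but 0.16 in primed cells and for the interaction with median centring, so centred values under 0.16 lie below it. With median centring, the primed difference was above 0 for Atp6v0a1 0.12, Atp6v0b 0.10, Atp6v0d1 0.62, Atp6v0e 0.54, Atp6v1a 0.40, Atp6v1c1 0.32, Atp6v1c2 0.66, Atp6v1d 0.30, Atp6v1e1 0.54, Atp6v1f 0.14, Atp6v1g1 0.24, Atp6v1g2 0.35, Atp6v1h 0.34, Atp6ap1 0.33, Atp6ap2 0.32, Ctsb 0.37, Ctsz 0.65, Lamp2 0.028, Mcoln3 0.014 and Mitf 0.28. With median centring, the interaction was above 0 for Atp6v0a2 0.41, Atp6v0e 0.35, Atp6v1a 0.20, Atp6v1b2 0.044, Atp6v1c1 0.16, Atp6v1d 0.078, Atp6v1e1 0.38, Atp6v1f 0.27, Atp6v1g1 0.039, Atp6ap1 0.071, Atp6ap2 0.14, Ctsa 0.0074, Ctsf 0.68, Ctsl 0.075, Ctsz 0.22, Lamp2 0.0056 and Mitf 0.32. With quantile normalization, the primed difference was above 0 for Atp6v0d1 0.31, Atp6v0e 0.19, Atp6v1a 0.11, Atp6v1c1 0.10, Atp6v1d 0.024, Atp6v1e1 0.11, Atp6v1g2 0.31, Atp6v1h 0.12, Atp6ap1 0.053, Atp6ap2 0.083, Ctsb 0.26, Ctsz 0.34, Mcoln3 0.095 and Mitf 0.13. With quantile normalization, the interaction was above 0 for Atp6v0a2 0.39, Atp6v0d1 0.13, Ctsb 0.21 and Ctsf 0.72. With cyclic loess, the primed difference was above 0 for Atp6v0d1 0.25, Atp6v0e 0.13, Atp6v1a 0.059, Atp6v1c1 0.065, Atp6v1e1 0.098, Atp6v1h 0.089, Atp6ap1 0.0034, Atp6ap2 0.051, Ctsb 0.23, Ctsz 0.27 and Mcoln3 0.11. With cyclic loess, the interaction was above 0 for Atp6v0a2 0.40, Ctsb 0.19 and Ctsf 0.77. No other alternative reversed a value that was called on either side. Read depth is unknown and 2 libraries a group limit all of these, and low members such as Ctsc, Tfeb and Mcoln3 most.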
